A study of Mus musculus with 6 samples.

Results

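The genes described are 6 genes of red blood cells, Hba-a1, Hba-a2, Hbb-bs, Hbb-bt, Alas2 and Slc4a1, chosen by symbol and matched to the Ensembl identifiers of the table. All 6 were among its 25894 identifiers, and all 6 had a mean normalised value of at least 1 and were tested. They were measured by RNA sequencing of inguinal white adipose tissue, a subcutaneous fat depot, taken from 6 mice labelled as female C57BL/6N, 15 weeks old. In 3 mice (called fragmented, recovered 1 to 3, or F 1 to F 3 in the plots) sleep had been fragmented for 8 weeks, followed by 2 weeks of recovery. The other 3 mice were controls (control 1 to 3, or C 1 to C 3). All 6 mice were of 1 strain, each library came from 1 mouse, and tissue was taken after 10 hours without food. The labels name no perfusion step and no batch.

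Hemoglobin carries oxygen and is built from alpha and beta globin chains, each holding a heme group. Mature red blood cells of mammals have no nucleus, and young ones (reticulocytes) still carry abundant globin messenger RNA, so globin reads in a solid tissue are commonly used as a measure of the blood left in it. Hba-a1 and Hba-a2 are the adult alpha globin genes, and Hbb-bs and Hbb-bt are the adult beta globin genes of the Hbb-s haplotype that C57BL/6 mice carry. Alas2 encodes the erythroid form of 5-aminolevulinate synthase, the enzyme of the opening step of heme synthesis, and Slc4a1 encodes band 3, the anion exchanger of the red cell membrane. Alpha globin has also been described in the endothelium of small arteries, where it binds nitric oxide. In a piece of bulk tissue, fewer cells of a type and less RNA per cell cannot be told apart.

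Whether a read can be given to 1 globin gene depends on sequence, so the place where the alpha globin transcripts part is shown here. In GENCODE M21 the Hba-a1 transcript (699 bases) and the Hba-a2 transcript (554 bases) aligned over 538 bases with 1 mismatch, C577T, where C is the Hba-a1 base, T the Hba-a2 base and positions are counted from the 5′ end of the Hba-a1 transcript. The mismatch lies in the coding part, and its base is in capitals in these stretches of 29 bases.
Hba-a1: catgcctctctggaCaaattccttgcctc
Hba-a2: catgcctctctggaTaaattccttgcctc
Of all stretches of 100 bases in the Hba-a2 transcript, 74.5% also occurred in Hba-a1 and in no other gene, and of those in Hba-a1 56.5% occurred in Hba-a2. Hbb-bs and Hbb-bt aligned over 616 bases with 41 mismatches, 1 of them coding and 40 outside the coding part. For Hbb-bs and Hbb-bt, 62.6% and 54.8% of the stretches of 100 bases were shared with the other gene. Alas2 and Slc4a1 shared none with any other transcript. How reads matching both copies were counted is not given in the sources used here, so the value of a single globin gene is uncertain and the sum of a pair less so.

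The 250 bases before the start of 4 of these genes are shown as a description of their sequence. They come from RefSeq, build GRCm38.p6, and run 5′ to 3′ along the gene. Capitals mark the CCAAT box, the TATAA box, the CACCC box and the GATAA motif, each on either strand, and the marks can overlap.
Hba-a1, chr11:32283422-32283671, plus strand: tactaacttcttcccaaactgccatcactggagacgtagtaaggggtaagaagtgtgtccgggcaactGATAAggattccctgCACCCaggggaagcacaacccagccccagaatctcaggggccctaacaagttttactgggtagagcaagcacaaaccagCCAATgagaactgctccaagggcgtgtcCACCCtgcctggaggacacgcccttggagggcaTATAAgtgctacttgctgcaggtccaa
Hbb-bs, chr7:103827929-103828178, minus strand: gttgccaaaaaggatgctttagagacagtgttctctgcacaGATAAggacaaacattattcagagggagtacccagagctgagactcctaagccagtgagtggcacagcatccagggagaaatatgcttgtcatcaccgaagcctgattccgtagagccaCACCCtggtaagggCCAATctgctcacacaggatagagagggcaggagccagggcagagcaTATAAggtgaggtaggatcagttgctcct
Hbb-bt, chr7:103813924-103814173, minus strand: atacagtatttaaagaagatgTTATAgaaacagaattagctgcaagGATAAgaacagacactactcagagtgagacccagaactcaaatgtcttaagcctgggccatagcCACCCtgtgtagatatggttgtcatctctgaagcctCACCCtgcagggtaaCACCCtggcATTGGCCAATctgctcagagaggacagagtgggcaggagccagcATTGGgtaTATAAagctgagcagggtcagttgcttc
Alas2, chrX:150547167-150547416, plus strand: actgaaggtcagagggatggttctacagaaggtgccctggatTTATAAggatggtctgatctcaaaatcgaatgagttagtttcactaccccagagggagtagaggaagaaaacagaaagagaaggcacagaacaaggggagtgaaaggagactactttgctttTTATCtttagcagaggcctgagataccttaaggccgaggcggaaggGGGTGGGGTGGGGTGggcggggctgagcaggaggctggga
The Hba-a1 window of 300 bases around the start matched that of Hba-a2 at 297 of 297 bases compared, with the 2 windows offset by 3 bases, so the Hba-a2 sequence is not repeated. On the strand of the gene TATAA began 27, 29 and 28 bases before the start of Hba-a1, Hbb-bs and Hbb-bt, and CCAAT 88, 76 and 75 bases before it. The 250 bases of Alas2 held no CCAAT, 3 matches to CACCC and 1 to GATAA, all on the opposite strand, the last being the core of the site bound by GATA factors. Over the 32851 RefSeq windows of this length, 33.8% held CCAAT, 22.8% TATAA, 52.0% CACCC and 22.6% GATAA on either strand. A match describes letters only. Slc4a1 is named only.

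Recovered reads ranged from 15610201 to 19703569 per library. Adipocyte transcripts were abundant in every library: Fabp4, a fatty acid carrier of fat cells, ranged from 41622 to 208561. Control 2 and control 3 stood apart from the rest in sequence composition: Spearman's rho across genes between a library's deviation and GC content was -0.28 in both, and 0.13 to 0.37 in the other 4. The libraries also differed in other tissues: the summed value of 10 B cell markers was 9373, 23003 and 10731 in fragmented, recovered 2, control 2 and control 3 and 59.7 to 94.3 elsewhere, and the sum of 12 skeletal muscle markers was 95767 in fragmented, recovered 1, 12342 in control 2 and 196 to 2342 elsewhere. Of the B cell genes 0 of 10 were higher (median log2 difference -2.10), of the muscle genes 12 of 12 (1.86) and of 12 adipocyte genes 11 (0.31), and none passed an FDR of 0.05 by limma. These directions were not stable: the muscle median was -0.54 (5 of 12 higher) without fragmented, recovered 1 and 0.15 without control 3, the B cell median 0.51 (6 of 10) without the 2 libraries highest in muscle markers, and the adipocyte median -0.03 (6 of 12) with GC and length trends removed. Their part in the results was not tested.

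Globin reads differed more among the 3 controls than between the groups. Control 1 was the highest of the 6 libraries for each of the 6 genes. As a share of all reads of a library, scaled to a total of 1000000 (RPM), the 4 globin genes together held 883.3 RPM in control 1 (95% Wilson interval 869.3 to 897.5), 237.2 in control 2 (229.6 to 244.9) and 214.1 in control 3 (207.2 to 221.1). In fragmented, recovered 1 to 3 they held 473.5 (463.6 to 483.5), 339.0 (331.0 to 347.3) and 396.7 (387.7 to 405.9). The 3 fragmented, recovered mice thus lay together between control 1 and the other controls, and no intervals overlapped between the 6 libraries. The group means were 403.1 ± 67.5 (SD, n = 3) and 444.8 ± 379.9 RPM, and the highest library had 4.13 times the share of the lowest. The log2 ratio of the means was -0.14 and turned to 0.84 without control 1. Intervals cover counting error only.

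**Figure D1:**
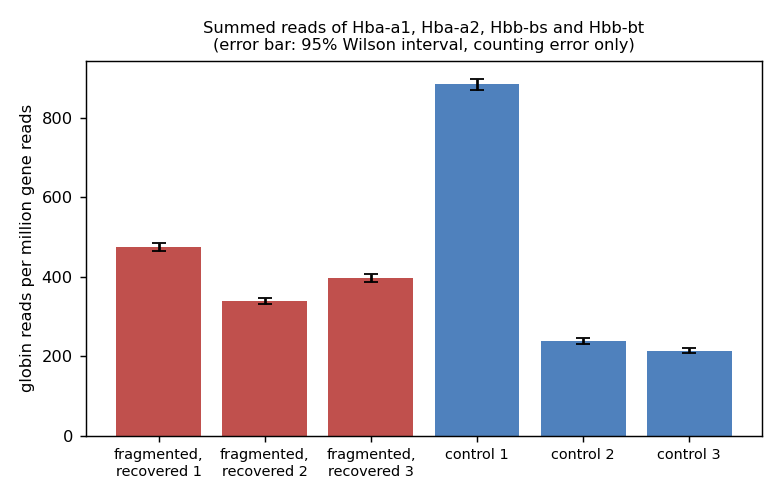
Reads of Hba-a1, Hba-a2, Hbb-bs and Hbb-bt summed, in RPM (vertical axis), in each of the 6 libraries; error bars are 95% Wilson intervals for counting error. Control 1 stands at 883.3, the fragmented, recovered mice between 339.0 and 473.5, and controls 2 and 3 at 237.2 and 214.1.

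Among the alpha chain genes, Hba-a1 had normalised values (reads divided by a size factor of the library) of 3031, 2012 and 2529 in fragmented, recovered 1 to 3 and 6170, 1311 and 1132 in control 1 to 3. The fragmented, recovered mice lay above controls 2 and 3 and below control 1, so the groups overlapped. The log2 difference, fragmented, recovered minus control on the log2(value + 1) scale, was 0.25 with an SE of 0.56 (limma adjusted p = 0.895). Its direction turned to -0.18 with edgeR and -0.19 with DESeq2 on recovered reads. Without control 1 the difference was 1.03 (limma adjusted p = 0.0545), short of the threshold of 0.05.

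Hba-a2 was the exception among the 6 genes. Its values were 593, 347 and 547 in fragmented, recovered 1 to 3 and 1367, 702 and 704 in control 1 to 3. Each control lay above each fragmented, recovered mouse, a separation seen in that direction for 3.58% of all 22290 genes tested. The log2 difference was -0.86 with an SE of 0.34, with an unadjusted p of 0.0305 and a limma adjusted p of 0.697, and did not pass. Of all genes, 2.14% were lower with an unadjusted p under 0.05. Without control 1 the difference was -0.54 (limma adjusted p = 0.280). With GC content and transcript length trends of each library removed, a setting chosen after seeing the data, the difference was -1.41 (limma adjusted p = 0.899). When Hba-a1 and Hba-a2 were summed before the test the difference was -0.03 (limma adjusted p = 0.989).

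The split of alpha globin reads between these near-identical genes differed between libraries. Hba-a2 took 16.4%, 14.7% and 17.8% of alpha globin reads in fragmented, recovered 1 to 3, 18.1% in control 1, 34.9% in control 2 and 38.3% in control 3. Control 1 (95% Wilson interval 17.3 to 19.1) overlapped fragmented, recovered 3 (16.5 to 19.1), while control 2 (32.7 to 37.1) and control 3 (36.0 to 40.7) lay far above the other 4 libraries. These are the 2 libraries with the opposite trend on GC content. The group means were 16.3% ± 1.53 (SD, n = 3) and 30.5% ± 10.8. The part of read assignment in this split was not tested.

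**Figure D2:**
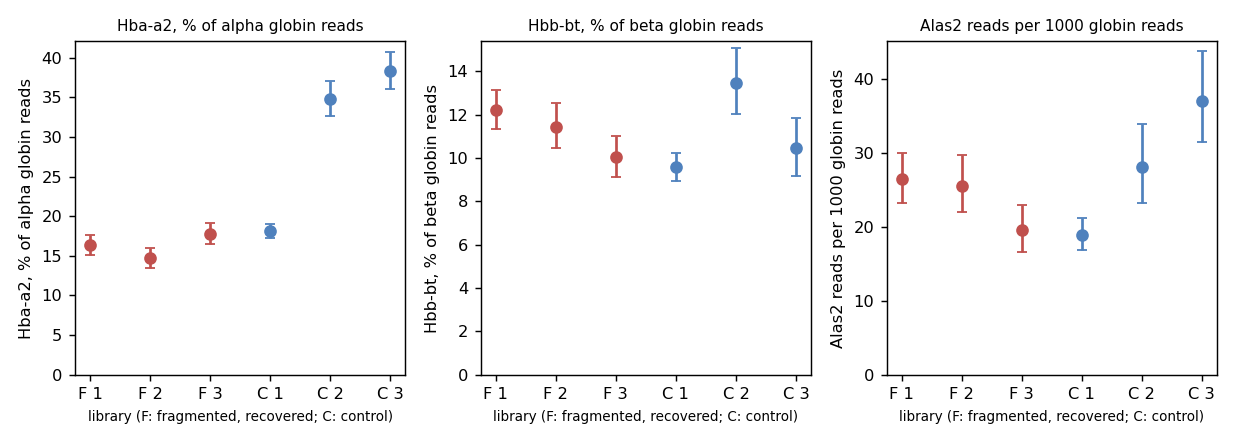
Share of Hba-a2 among alpha globin reads (left, percent), share of Hbb-bt among beta globin reads (middle, percent) and Alas2 reads per 1000 globin reads (right) in each library; F marks fragmented, recovered mice, C controls, and bars are 95% Wilson intervals. The Hba-a2 share is 34.9% and 38.3% in controls 2 and 3 and 14.7% to 18.1% elsewhere, whereas the Hbb-bt share stays between 9.57% and 13.5%.

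Among the beta chain genes, Hbb-bs had the highest level per kilobase of the 6. Its normalised values were 4726, 2398 and 3166 in fragmented, recovered 1 to 3 and 7681, 1879 and 1985 in control 1 to 3. The order was that of Hba-a1 except that control 2 and control 3 changed places. The log2 difference was 0.11 with an SE of 0.51 (limma adjusted p = 0.954), turning to -0.16 with edgeR on recovered reads. Hbb-bt, the less abundant copy, had values of 657, 310 and 353 against 813, 293 and 232. Again control 1 was highest and controls 2 and 3 were lowest. Its difference was 0.13 with an SE of 0.48 (limma adjusted p = 0.940), turning to -0.012 with edgeR. Without control 1, Hbb-bs and Hbb-bt had differences of 0.77 and 0.67 (limma adjusted p = 0.164 and 0.293).

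The beta genes kept a steadier split than the alpha genes. Hbb-bt took 12.2%, 11.5% and 10.0% of beta globin reads in fragmented, recovered 1 to 3 and 9.57%, 13.5% and 10.5% in control 1 to 3, with group means of 11.2% ± 1.11 and 11.2% ± 2.05 (SD, n = 3). Beta reads per alpha read, over both genes of each kind, were 1.49, 1.15 and 1.14 in fragmented, recovered 1 to 3 and 1.13, 1.08 and 1.21 in control 1 to 3. Fragmented, recovered 1 was the highest and the groups overlapped. While globin RPM spanned 4.13-fold over the libraries, this ratio spanned 1.38-fold. Counting only the more abundant copies, Hbb-bs reads per Hba-a1 read spanned 1.47-fold and were highest in control 3 (1.75), with 1.56 in fragmented, recovered 1. The group means of that ratio were 1.33 ± 0.20 in fragmented, recovered mice and 1.48 ± 0.26 in controls (SD, n = 3), and the groups overlapped.

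Alas2 was highest in the same libraries as the summed globins, with another order below them and a narrower range. Its values were 238, 130 and 129 in fragmented, recovered 1 to 3 and 304, 118 and 150 in control 1 to 3, which rest on 104 to 285 reads. Control 1 and fragmented, recovered 1 were the highest, and the remaining 4 libraries lay between 118 and 150. Of these 4, control 3, the library lowest in globin RPM, had the highest value. The log2 difference was -0.14 with an SE of 0.44 (limma adjusted p = 0.927), and 0.25 without control 1 (limma adjusted p = 0.716). Per 1000 globin reads there were 26.5, 25.6 and 19.6 Alas2 reads in fragmented, recovered 1 to 3 and 18.9, 28.1 and 37.1 in control 1 to 3. Control 3 (95% Wilson interval 31.4 to 43.8) had the most Alas2 per globin read and control 1 (16.9 to 21.3) the fewest, and their intervals did not overlap.

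Slc4a1 was near the limit of detection. It had 8, 4 and 0 reads in fragmented, recovered 1 to 3 and 11, 2 and 0 in control 1 to 3. The 2 libraries at 0 allow up to 0.163 and 0.177 RPM, the share that 3 reads make of these libraries. Control 1 and fragmented, recovered 1 again had the most reads. Its log2 difference of -0.05 had an SE of 1.19 (limma adjusted p = 0.992), turning to 0.89 without control 1 and 0.82 without fragmented, recovered 3, so a difference was not detectable at this depth.

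**Figure D3:**
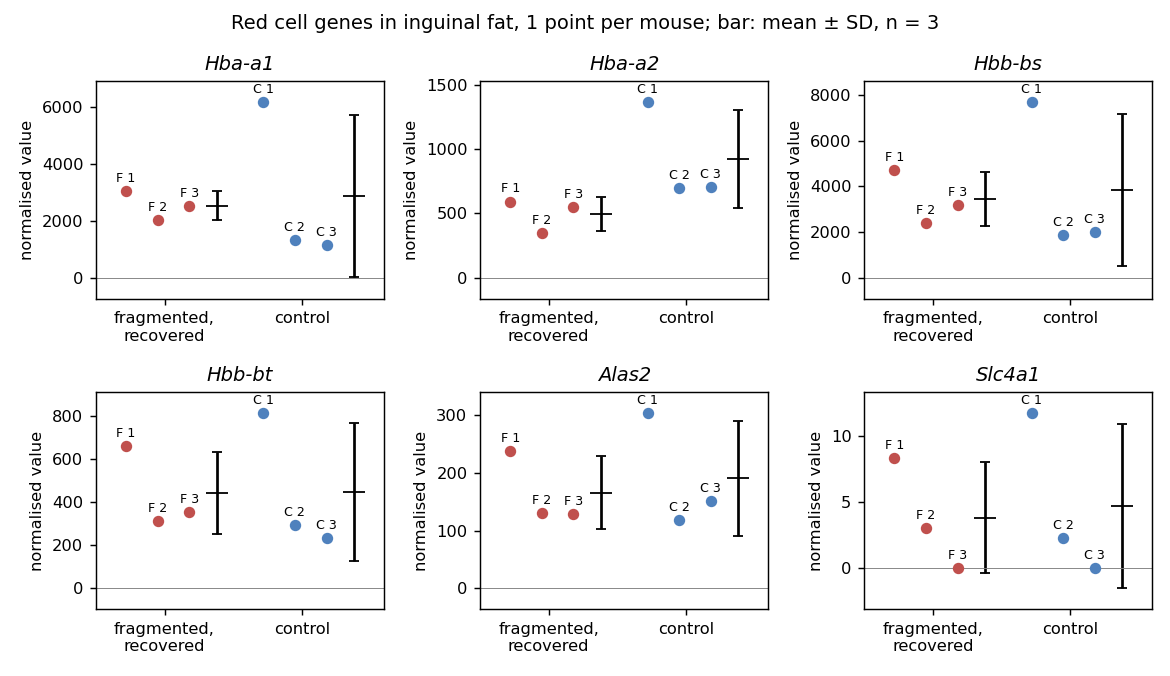
Normalised value (vertical axis, linear, each panel with its own scale) of the 6 red cell genes in each mouse, with the mean ± SD of each group (n = 3) beside the points. C 1 is the highest point in every panel, and only Hba-a2 has all 3 controls above all 3 fragmented, recovered mice.

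Of the 6 genes, 0 passed an FDR of 0.05 by limma, against 0% of all genes (0 of 22290). At an unadjusted p under 0.05 there was 1 of 6, Hba-a2, where 3.24% of all genes were higher and 2.14% lower. Hba-a2 was also the only one of the 6 at that level with edgeR (4.57% of all genes, 1019) and DESeq2 (5.61%, 1251), and those tools called 0 genes as well. Of the 6, 3 were higher and 3 lower, with a median log2 difference of 0.03 beside 0.02 over all genes tested. With edgeR, DESeq2 and GC and length trends removed, 0 of 6 were higher (medians -0.19, -0.19 and -0.27), as without control 2 or control 3, and without control 1 there were 5 (median 0.72). Leaving out control 1 gave 844 calls over all genes (3.79%), 0 of them among the 6. In that fit Hba-a1 and Hbb-bs had unadjusted p under 0.05, a level that 24.4% of all genes reached in either direction. With scaling to equal library totals the median of all genes was 0.14, and Hba-a2 then had -0.74 and Hba-a1 0.37.

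**Figure D4:**
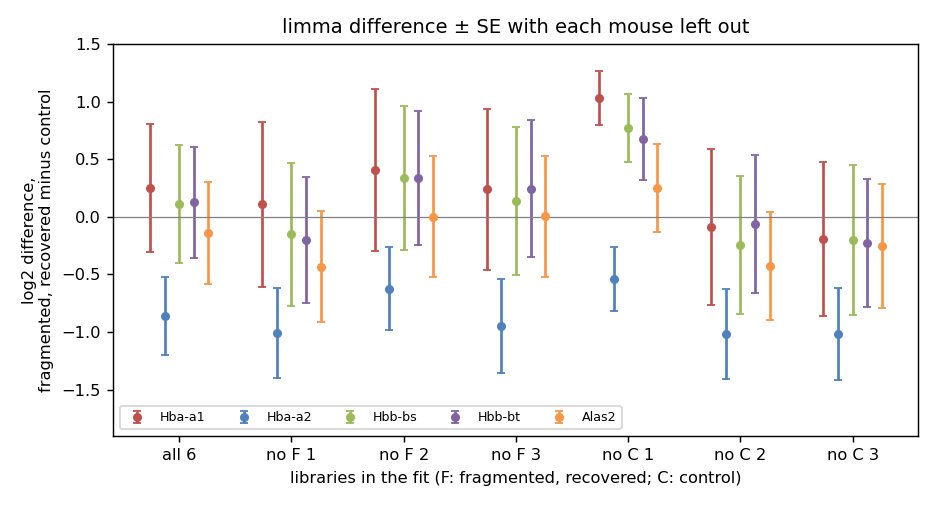
Log2 difference ± SE (limma, fragmented, recovered minus control) for 5 red cell genes with all 6 libraries and with each library left out. Without C 1 the differences of Hba-a1, Hbb-bs, Hbb-bt and Alas2 are 1.03, 0.77, 0.67 and 0.25, while Hba-a2 stays below 0 in each fit, from -1.02 to -0.54.

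Per kilobase of transcript, the mean normalised values ran from 5795 for Hbb-bs through 3859 for Hba-a1, 1282 for Hba-a2, 630.2 for Hbb-bt and 87.5 for Alas2 to 0.928 for Slc4a1. Each gene lay above the next in 6 of 6 libraries. The ratio per kilobase of Hbb-bs to Hba-a1 ran from 1.33 to 1.95 over libraries, and that of Hba-a2 to Hbb-bt from 1.14 to 3.86. The ratio of Hba-a1 to Hba-a2 ran from 1.27 to 4.59. The order is uncertain in each of these pairs, since reads can match both copies of an alpha or beta gene. The spread over libraries was wide for globins. The highest library had 5.45 times the value of the lowest for Hba-a1, 4.09 times for Hbb-bs, 3.94 times for Hba-a2, 3.51 times for Hbb-bt and 2.58 times for Alas2, beside a median of 2.11 times over the 12938 genes that averaged 50 or more. Of those genes, 90.1% had a smaller ratio than Hba-a1, 84.8% than Hbb-bs, 83.8% than Hba-a2, 80.7% than Hbb-bt and 65.9% than Alas2.

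The other globin genes were low or followed another order. Of 9 listed, 4 were in the table: Hbb-bh1, an embryonic beta-like gene, Mb, the myoglobin of muscle, Cygb, a globin of fibroblasts and stellate cells, and Ngb, a globin of neurons. Cygb had values of 993, 1038 and 1058 in fragmented, recovered 1 to 3 and 815, 543 and 628 in control 1 to 3. No control reached the lowest fragmented, recovered mouse, a separation seen in that direction for 5.02% of all genes. The difference of 0.66 (SE 0.24) did not pass, with a limma adjusted p of 0.697. Mb had 19.7, 36.4 and 10.8 against 27.7, 1.13 and 0, and so did not peak in fragmented, recovered 1, the library highest in skeletal muscle actin, Acta1. Hbb-bh1 and Ngb did not exceed 5.65 and 3.61 in any library.

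Genes of the red cell membrane and its skeleton, 16 tested of 19 listed, had 9 higher and 7 lower, 0 at an unadjusted p under 0.05 and a median of 0.09. Aqp1, a water channel of red cells and capillary endothelium, had 10165, 7924 and 9767 against 7840, 6322 and 7208, so it did not peak in control 1 as the globins did. Its difference was 0.38 (limma adjusted p = 0.698). Epb41, a linker of the membrane skeleton, had 0.02. Ank1, the erythroid ankyrin that skeletal muscle also makes, had 140.0 in fragmented, recovered 1 and 4.46 to 18.1 in the other 5 libraries. Late erythroid genes and red cell enzymes had 9 of 18 higher and a median of -0.00037. Cat, catalase, had 0.02, and Hemgn, a nuclear protein of erythroid precursors, 0 to 12.3 in every library.

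Regulators of red cell formation, 14 tested, had 10 higher, 2 of them at an unadjusted p under 0.05 (3.24% of all genes were higher at that level), and a median of 0.12. Over all genes 11494 of 22290 were higher. Without fragmented, recovered 2 the median of the regulators was -0.13 and with GC and length trends removed -0.08, with 6 of 14 higher in both. Gata1 and Klf1, the factors that define erythroid precursors, were at 12.1 or less and 12.3 or less in every library. Nfe2 and Gfi1b of the same list were at 28.3 or less and 11.1 or less. Tal1, Lmo2 and Tfrc, also of the list, were higher, with 47.9 to 141, 201 to 497 and 208 to 873. These genes were named after their values were seen, and the presence of erythroid precursors was not tested. Ldb1, a cofactor of GATA factors in many tissues, had 1341, 1937 and 1421 against 1303, 755 and 476, all fragmented, recovered mice above all controls, with a difference of 0.99 (limma adjusted p = 0.697) and 1.36 without control 1 (limma adjusted p = 0.0442). Epor, the erythropoietin receptor, had 153, 171 and 126 against 136, 59.9 and 32.3, a difference of 1.20 (SE 0.53) with a limma adjusted p of 0.697. For both genes, control 1 lay nearer the fragmented, recovered mice than the other controls did.

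Heme synthesis and export genes had 8 of 17 higher and a median of -0.05, which turned to 0.07 (12 of 17) with scaling to equal library totals and was -0.17 (3 of 17) with GC and length trends removed. Alas1, the form of the enzyme made in all tissues, had 3097, 2165 and 3050 against 3354, 2547 and 2701. Control 1 was again the highest and fragmented, recovered 2 the lowest. Its difference was -0.06 (limma adjusted p = 0.948). Ppox, the last enzyme but 1 of heme synthesis, had 350, 422 and 398 against 321, 228 and 207, a difference of 0.65 (limma adjusted p = 0.697).

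Genes that clear heme and hemoglobin had 9 of 17 higher and a median of 0.02. Hmox1, which breaks heme open, had 780, 498 and 364 against 340, 404 and 506, with its lowest value in control 1, the library highest in globins. Cd163, the macrophage receptor for hemoglobin bound to haptoglobin, had 1708, 1527 and 919 against 1699, 1596 and 3536. Slc40a1, the iron exporter ferroportin, had 529, 417 and 399 against 493, 1181 and 740, a difference of -0.76 (limma adjusted p = 0.697). Fth1, the heavy chain of ferritin, had 40529, 25043 and 25659 against 38038, 16183 and 13670. It was highest in fragmented, recovered 1 and control 1, the 2 libraries that were also highest in globins. The summed adipocyte genes were highest in the same 2 libraries (632099 and 482700) and lowest in controls 2 and 3 (181846 and 227675). The source of the Fth1 pattern was not tested.

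Transcripts of other blood cells were in varied orders over the libraries. None of the 16 neutrophil, 16 platelet, 12 blood endothelium and 9 arterial endothelium genes tested passed (limma, FDR 0.05); 5, 7, 9 and 5 of them were higher, with medians of -1.87, -0.30, 0.26 and 0.27. Without control 2 the medians of the neutrophil, platelet and arterial genes were -0.37, 0.0088 (9 of 16 platelet genes higher) and 0.012. Without control 1 the neutrophil and platelet medians were -3.71 and -0.62. Neutrophil genes such as S100a8, a calcium-binding protein of their cytoplasm, peaked in control 2, with 4865, against 478 in control 3 and 11.7 to 172 in the other 4, control 1 among them with 38.4. The summed value of the 16 neutrophil genes was 4577 to 6664 in fragmented, recovered mice and 3746 to 12792 in controls. Among platelet genes, Pf4, another chemokine of their granules, had 1060 in fragmented, recovered 1, 369 and 324 in the other 2 and 428, 301 and 214 in control 1 to 3. Its 2 highest libraries were those highest in globins, and controls 2 and 3 were the lowest, as for Hba-a1. The platelet genes as a list had another order. Their median log2 deviation from each gene's mean was lowest in fragmented, recovered 1 (-0.48) and control 1 (-0.37). It was highest in control 2 (0.61). Ppbp, a chemokine of platelet granules, had 17.6, 19.0 and 11.7 against 34.1, 67.8 and 33.4. All controls lay above all fragmented, recovered mice for Ppbp, with a difference of -1.38 (SE 0.59, limma adjusted p = 0.697). A separation in that direction was seen for 3.58% of all genes tested. The summed value of 16 platelet genes was 873 to 1558 and 966 to 1413 in the 2 groups. Blood endothelium genes, which mark the vessel wall, summed to 25176 to 32834 and 24057 to 27458 in the 2 groups, with control 1 (24057) and control 2 (24065) nearly level at the bottom. The sum of 9 arterial endothelium genes was highest in control 1 (6286), lay at 5767, 4890 and 5994 in fragmented, recovered 1 to 3 and was lowest in control 2 (3621) and control 3 (4717). In this sum control 1 stood above and controls 2 and 3 below the fragmented, recovered mice, as for the summed globins. By the median log2 deviation of these genes, control 1 (0.11) lay below fragmented, recovered 1 (0.17) and 3 (0.20). Controls 2 and 3 were again the lowest (-0.28 and -0.18). Nos3, the endothelial nitric oxide synthase, had 530, 518 and 512 against 484, 213 and 333, a difference of 0.68 (limma adjusted p = 0.697).

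The genes whose values followed the mean of the 6 red cell genes most closely over the 6 libraries were Hddc2 (Pearson r = 0.995), Ascc1, Tsen15, Cmc1, Fars2, Bloc1s5, Vipas39 and Prelid3b, among 12933 genes that averaged 50 or more. The last of these had an r of 0.974, and 27 genes reached 0.95. With 6 points this is a description of likeness. The mean gave each of the 6 genes equal weight on the log2 scale, including Slc4a1, which had 0 to 11 reads. It placed fragmented, recovered 2 (-0.33) above fragmented, recovered 3 (-0.40), whereas their summed globins stood at 339.0 and 396.7 RPM. Likeness to this mean is thus not likeness to the globins alone. Hddc2 had 176, 126 and 112 in fragmented, recovered 1 to 3 and 228, 112 and 100.3 in control 1 to 3, a narrower range than that of Hba-a1. The genes that ran most nearly opposite were Atxn1l (r = -0.987), Trim56, Rnf169 and Msl1. Atxn1l had 586 in control 1 and 705 to 1077 in the other libraries.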

How the data were processed

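Per the submitters' processing notes, the build was mm8 and the tools included featureCounts 1.5.0-p3, HISAT2 2.0.5 and CASAVA. The step that scaled the reads is not given in the sources used here. The deposited table holds a signal value per gene and library. Taking the lowest nonzero entry of a library as 1 read, 100% of entries were whole within 0.02, and DESeq2 size factors of these reads equalled the recovered divisors (0.8847 to 1.3183). Symbols were matched from an identifier table, leaving 33 unmatched. Genes averaging 1 or more (22290) were tested with limma 3.58.1 (R 4.3.3, intensity trend) on log2(value + 1), and p-values were adjusted over all 22290 by Benjamini-Hochberg at an FDR of 0.05. edgeR 4.0.16 and DESeq2 1.42.0 on recovered reads called 0 genes, and DESeq2 left 118 without an adjusted p. Other settings changed the scaling, pseudocount, filter, replicate block and libraries. P-values set a group difference against the spread between these mice, which limma estimated with a trend over all genes.

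The members and gene lists were chosen with earlier results of these data known. Beside the 6 genes and the other globins, the rule named 2 abundant genes of a list, up to 2 with the smallest p-values, Alas1, Hmox1, and the 8 most and 4 least alike in pattern. Not every gene it allows is named. A gene of the lists is not reported here. The number of genes listed was 182 beside the 6, of which 169 were tested, in 13 lists. Shares carry 95% Wilson intervals. Transcript lengths, GC content and sequences shared between genes came from GENCODE M21 and promoters from RefSeq, whose build differs from mm8, so no coordinates of the authors' build are given.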

Additional observations from a re-analysis of the deposited data

How the results depend on the processing

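The count of 0 of the 6 genes past the threshold held in every setting run, each library left out in turn included. Over the 169 other listed genes tested it was 0, and from 0 to 5 with each library left out. The 5 that passed without control 1 included Cldn5, Egfl7, Ldb1 and Lipe. In that fit 3.79% of all genes passed. Hba-a2 stayed below 0 in all settings, from -1.02 to -0.54 with each library left out. Signs turned for Hba-a1, Hbb-bs and Hbb-bt with edgeR (-0.18, -0.16 and -0.012), DESeq2 (-0.19, -0.17 and -0.019), GC content and length trends removed (-0.33, -0.22 and -0.19) and without fragmented, recovered 1 and control 2, the libraries highest in muscle markers (-0.23, -0.50 and -0.39). Summing the alpha pair gave -0.028. With each library left out the ranges were -0.19 to 1.03 for Hba-a1, -0.24 to 0.77 for Hbb-bs, -0.23 to 0.67 for Hbb-bt, -0.43 to 0.25 for Alas2 and -0.94 to 0.89 for Slc4a1. The cause was not tested. The log2 ratio of mean globin shares was -0.14, and 0.74 from medians; with each library left out it ran from -0.48 to 0.84, the last without control 1. The difference in Hba-a2 share was -14.2 percentage points, ran from -20.3 (without control 1) to -10.2 (without control 3) with each library left out, and was -7.81 from reads summed over each group.

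Whether replicate numbers pair the mice could not be told. Deviations of same-numbered mice correlated at 0.18, 0.39 and 0.042. Those of differently numbered mice correlated at -0.36 to 0.21. With the replicate block 0 of the 6 genes passed, Hba-a2 having a limma adjusted p of 0.370, and genes at an unadjusted p under 0.05 numbered 2676 against 1201. Slc4a1 was left out by a mean of at least 10. With 3 mice a group and 104 to 285 reads for Alas2, small differences could not be detected.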
